A study of Mus musculus with 6 samples.

Results

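The genes described are 10 selectins and immunoglobulin adhesion molecules of endothelium, Sele, Selp, Icam1, Icam2, Vcam1, Pecam1, Mcam, Alcam, Cd99l2 and Ncam1, chosen by name as every probe set that the platform annotation assigns to 1 of these genes alone. They are 10 of 18193 genes and hold 27 of 45037 probe sets on the array. RNA was measured in endothelial cells sorted from pooled skin-draining and mesenteric LN of untreated 6-week-old C57BL/6 mice, on 6 GeneChip arrays in all, 3 for each group. CD45neg cells were sorted into a double-positive gate (gp38 and CD31) and a CD31+ gate, which in the study's methods lacked gp38. The cell type word of the labels goes the other way, with BEC (blood endothelial cells) on the double-positive arrays and LEC (lymphatic endothelial cells) on the CD31+ arrays, whereas the study's gates define LEC as gp38+ CD31+. Arrays are named here by their gate, each difference is double positive minus CD31+ on the log2 scale, and under the cell type word every sign would turn round.

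Selectins are lectins that let leukocytes tether to and roll on the vessel wall, and the immunoglobulin superfamily molecules ICAM-1, ICAM-2 and VCAM-1 are the endothelial ligands of leukocyte integrins, on which rolling cells arrest. PECAM-1, CD99L2 and MCAM sit at or near endothelial junctions, where homophilic and other contacts guide leukocytes between the cells. In LN these steps bring lymphocytes in from blood through high endothelial venules, while lymphatic sinuses carry cells that arrive with lymph.

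Proximal promoter sequences are given for 3 members that differed in pattern, Selp as lower, Icam1 with no difference past its spread, and Alcam as higher in the double-positive arrays with dim probe sets left out. They are the 250 bases before the start of each gene in RefSeq (GRCm38.p6), with capitals for matches on either strand to GGAAANNCC, a motif of the NF-kB type, GGGCGG, a motif of the Sp1 type, and TATAAA, the TATA motif. None of the matches shown overlap. The sequences are Selp at chr1:164115014-164115263 (plus strand), Icam1 at chr9:21015690-21015939 (plus strand) and Alcam at chr16:52453082-52453331 (minus strand).
Selp: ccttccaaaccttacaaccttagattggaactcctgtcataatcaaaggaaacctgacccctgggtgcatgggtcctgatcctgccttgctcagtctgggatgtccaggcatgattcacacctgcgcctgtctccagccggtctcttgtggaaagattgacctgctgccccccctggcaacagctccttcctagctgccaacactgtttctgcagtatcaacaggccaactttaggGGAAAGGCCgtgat
Icam1: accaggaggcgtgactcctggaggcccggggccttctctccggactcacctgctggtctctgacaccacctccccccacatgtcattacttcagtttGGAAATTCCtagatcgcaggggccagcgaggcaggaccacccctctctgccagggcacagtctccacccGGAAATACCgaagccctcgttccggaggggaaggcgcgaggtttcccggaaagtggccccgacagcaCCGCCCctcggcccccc
Alcam: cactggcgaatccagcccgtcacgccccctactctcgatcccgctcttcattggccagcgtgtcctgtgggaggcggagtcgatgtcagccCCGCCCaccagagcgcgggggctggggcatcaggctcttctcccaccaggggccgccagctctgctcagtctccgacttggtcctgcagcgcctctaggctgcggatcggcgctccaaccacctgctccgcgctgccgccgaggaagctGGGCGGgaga
Selp held 1 match to GGAAANNCC, which begins 14 bases before the start. Icam1 held 2, beginning 153 and 84 bases before it, together with 1 match to GGGCGG. Alcam held 2 matches to GGGCGG and none to the other motifs. GGAAANNCC occurred in 4.93% of the 32851 RefSeq promoters of this length, GGGCGG in 32.7% and TATAAA in 12.4%. RefSeq promoters were matched for 6 of the 10 members, and Vcam1, Icam2, Pecam1 and Ncam1 were not among them. Of the 3 others, Mcam and Cd99l2 held 5 and 2 matches to GGGCGG. Sele held 1 TATAAA. The windows of Sele and Cd99l2 were taken at starts inside the spans that RefSeq gives these genes. These matches are a description of the letters in the window.

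The values are relative log2 abundances with a floor at 2.39, and 37.4% of all probe sets lie within 0.1 of it on every array, where no difference can be seen. The double-positive arrays ran brighter: over probe sets averaging 5 or more, medians were 7.07 to 7.31 against 6.16 to 6.66 in the CD31+ arrays. Centring the arrays on these medians moves every difference down by 0.68, so a positive difference under that size changes sign. Correlations between arrays were 0.960 to 0.988 within a group and 0.924 to 0.957 between groups. Of 9 measured lymphatic endothelial markers 6 passed as higher in the double-positive arrays, where Pdpn, the gene of gp38, was 4.07 higher (adjusted p = 0.0428 from limma). Of 10 blood endothelial markers 6 passed as lower. With the replicate block 0 markers of either list passed over all probe sets (adjusted p = 0.196 for Pdpn), and with the filter and the block 8 lymphatic markers passed as higher and 6 blood endothelial ones as lower. In their direction the markers that passed went with the gate and against the cell type word of the labels. With the block, 1 of the 10 blood endothelial markers went the other way with an unadjusted p under 0.05 from limma. Summed on the linear scale, the lymphatic markers gave 6492 to 7767 units in the double-positive arrays against 251 to 390.1 units in the CD31+ arrays, and the blood endothelial markers 2131 to 2904 units in the double-positive arrays against 6220 to 8996 units in the CD31+ arrays. Ptprc, the gene of CD45 that the beads removed, averaged 2.67 in the double-positive arrays against 3.72 in the CD31+ arrays. In sorted populations measured in bulk, fewer cells of a type and less RNA per cell cannot be told apart.

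Among the 10 adhesion genes, Vcam1 was higher in the double-positive arrays. Selp was lower and Alcam higher there without overlap, though neither passed with all probe sets tested on the values as deposited, while Icam1 and Icam2 were well measured in both groups and overlapped. Sele, Pecam1, Mcam and Ncam1 were at or within 0.1 of the floor on most arrays. With all probe sets tested, 1 of 10 members passed as higher (Vcam1) and 0 as lower at 5% FDR in limma, against 0.879% of all genes higher and 0.176% lower. Without adjustment, p under 0.05, the counts were 3 higher (Vcam1, Alcam and Cd99l2) and 1 lower (Selp), beside 12.5% of all genes higher and 2.12% lower. With the replicate number as a block and all probe sets tested, 0 members passed at 5% FDR, beside 2 of all genes as higher and 0 as lower. The groups did not overlap, with the double-positive arrays above, for 3 of the 10 members, which was so for 16.9% of all genes, and with them below for 1, which was so for 3.42%. Among the 4207 genes above the filter on dim probe sets these shares were 47.7% and 5.99%. The median difference was 0.21 over the members and 0.0001 over all genes tested. Among genes above the filter on dim probe sets the order was the other way, with a median of 0.48 over 5 members against 0.75 over the 4207 genes.

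**Figure D1:**
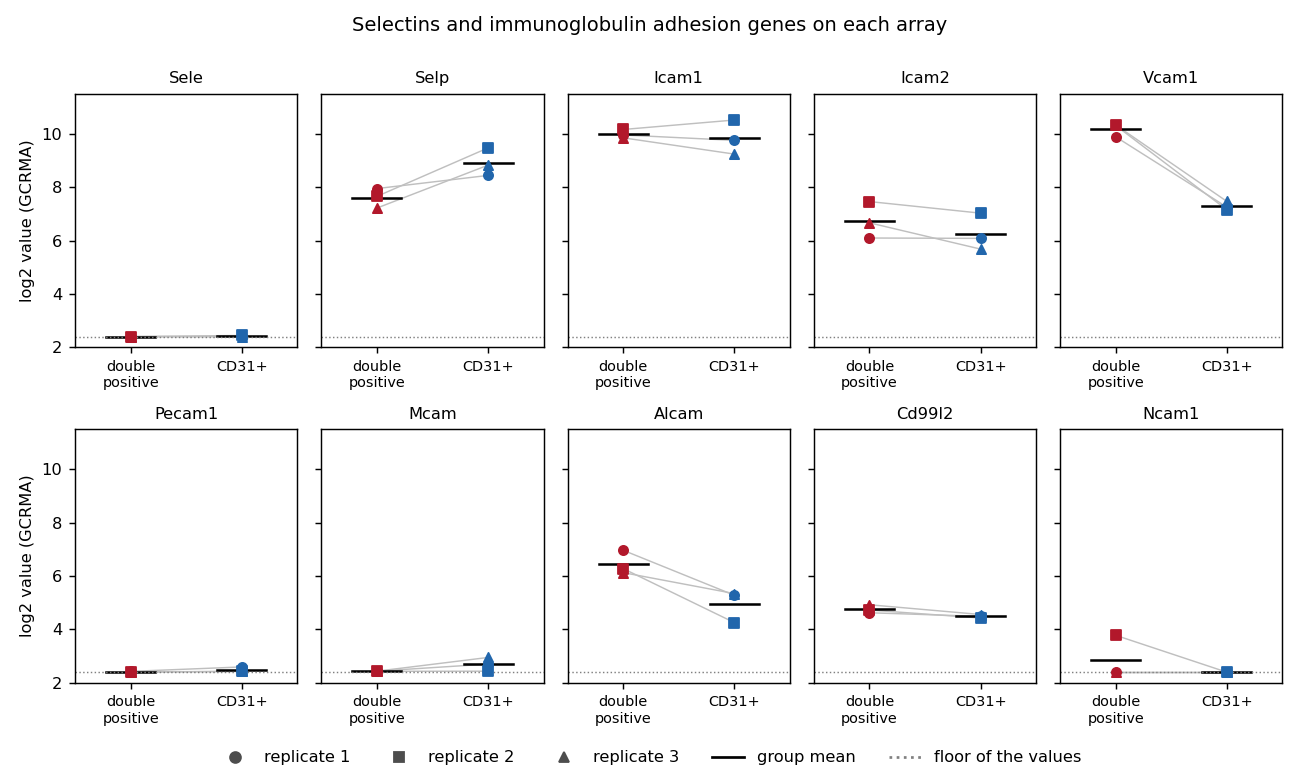
Log2 value (y axis) of each of the 10 genes on each array, at its brightest probe set, with the double-positive arrays in red at the left and the CD31+ arrays in blue at the right of each panel. Marker shapes give the replicate number, thin lines join equal numbers, bars are group means and the dotted line is the floor at 2.39; Vcam1 sits near 10 against 7, Selp is lower and Alcam higher in the double-positive arrays, and 4 genes lie at the floor on most arrays.

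A filter for brightness (log2 of 5 or more on at least 3 arrays) left 5 of the 10 members at their main probe set, Selp, Icam1, Icam2, Vcam1 and Alcam, and 7 of their 27 probe sets. With it 2 members passed as higher (Vcam1 and Alcam) and 1 as lower (Selp). Among the 4207 genes it kept, 33.2% passed as higher and 4.11% as lower, so passing as higher was common among measurable genes. With the filter and centred arrays 1 member passed as higher (Vcam1) and 1 as lower (Selp), beside 12.6% and 9.63% of the genes. A gene that passes the filter only through its higher group has to differ, and the main probe sets of Selp, Icam1, Icam2 and Vcam1 were above 5 on all 6 arrays, and that of Alcam on 5.

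P-selectin, which endothelial cells store in Weibel-Palade bodies and bring to their surface on activation, was the selectin measured here. Its gene Selp had log2 values of 7.95, 7.66 and 7.22 in the double-positive arrays, against 8.45, 9.48 and 8.83 in the CD31+ arrays, at the brightest of its 3 probe sets. Every double-positive array was below every CD31+ array, and the double-positive array was lower in each of the 3 pairs of equal replicate number, by 0.49, 1.82 and 1.61. The means were 7.61 ± 0.368 in the double-positive arrays against 8.92 ± 0.522 in the CD31+ arrays (SD, n = 3 each). The difference was -1.31 (SE 0.353, 95% interval -2.26 to -0.36), or 2.47-fold higher in the CD31+ arrays, and with all probe sets tested it did not pass (adjusted p = 0.331 from limma). With the filter it passed (adjusted p = 0.0217), as it did once arrays were also centred, where it was -1.99 (adjusted p = 0.0014 from limma). Leaving out double-positive replicate 2 or 3 ended the filtered call (adjusted p = 0.0551 and 0.0825 from limma).

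A second Selp probe set (1449906_at) had values of 4.41, 4.37 and 4.87 in the double-positive arrays against 5.41, 7.03 and 7.34 in the CD31+ arrays. These groups did not overlap either, although CD31+ replicate 1 stood well below the other CD31+ arrays. The difference was -2.04 (SE 0.593, adjusted p = 0.376 from limma, and 0.0132 with the filter, which this probe set passed through the CD31+ arrays alone). The third (1440173_x_at) differed by -1.52 and its groups overlapped, with double-positive replicate 1 at 3.44 and CD31+ replicate 3 at 3.44. All 3 probe sets were thus lower on average in the double-positive arrays.

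Platelets also store P-selectin, and 7 of 8 listed platelet markers were measured. Of these 4 (Gp9, Gp1bb, Gp5 and Gp6) lay near the floor on all 6 arrays, and the linear sum of the 7 was 349 to 586 units in the double-positive arrays against 123 to 357 units in the CD31+ arrays. The platelet chemokine gene Pf4, the only 1 of the 7 that passed the filter, averaged 8.50 in the double-positive arrays against 7.67 in the CD31+ arrays. Its difference of 0.83 became 0.15 with centred arrays. High endothelial venule markers summed to 10479 to 15002 units in the double-positive arrays against 5322 to 32816 units in the CD31+ arrays, and pericyte and smooth muscle markers to 199 to 272 units in the double-positive arrays against 170.0 to 895 units in the CD31+ arrays. With all probe sets tested 0 markers of either list passed. With the filter 1 of 4 venule markers passed as higher and 1 as lower, and of 3 pericyte markers 0 and 2. All genes so filtered passed at 33.2% and 4.11%, and the sums do not describe these lists as a whole. The part of these cells in the difference of Selp was not tested. E-selectin, the selectin that endothelium makes on inflammatory activation, was not measurable above the floor. The single probe set of Sele lay between 2.39 and 2.40 in the double-positive arrays against 2.40 to 2.44 in the CD31+ arrays, within 0.1 of the floor on all 6.

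Vcam1, which encodes the ligand of the integrin alpha4 beta1 of lymphocytes and monocytes, had the largest difference of the 10 genes at their brightest probe sets. Its brightest probe set (1448162_at) had log2 values of 9.90, 10.32 and 10.34 in the double-positive arrays, against 7.26, 7.16 and 7.47 in the CD31+ arrays. The groups were far apart compared with their spread, and the pair differences were close to each other at 2.64, 3.16 and 2.87. The means were 10.19 ± 0.251 in the double-positive arrays against 7.30 ± 0.161 in the CD31+ arrays (SD, n = 3 each), which differ by 2.89 (SE 0.165, 95% interval 2.45 to 3.33) or 7.41-fold. It passed with all probe sets tested (adjusted p = 0.0217 from limma) and with the filter (adjusted p = 0.0001). With the replicate number as a block and all probe sets tested it did not pass (adjusted p = 0.171 from limma). The call over all probe sets was also lost without any single array other than double-positive replicate 1 (adjusted p 0.0640 to 0.0988 from limma), and with the filter it was kept in all 6 such fits.

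The other Vcam1 probe sets were dim. 1451314_a_at averaged 3.54 in the double-positive arrays against 3.09 in the CD31+ arrays without overlap, and 1415989_at averaged 2.92 in the double-positive arrays against 2.67 in the CD31+ arrays with overlap. Their differences of 0.46 and 0.25 did not pass, so the size of the change rests on 1 probe set of 3, and with probe sets averaged Vcam1 differed by 1.20 (adjusted p = 0.0411 from limma). Fibroblastic reticular cells and macrophages also make VCAM-1. The 9 measured fibroblastic reticular markers summed to 222 to 319 units in the double-positive arrays against 232 to 662 units in the CD31+ arrays, with Col3a1 at 4.08 in the double-positive arrays and at 7.22 in the CD31+ ones. With the filter 2 of 6 reticular markers passed as higher and 3 as lower, beside 33.2% and 4.11% of all genes. The list was thus split, which its sum does not show. The 8 myeloid markers summed to 1072 to 1732 units in the double-positive arrays against 1819 to 2066 units in the CD31+ arrays, with Cd68 near the floor on every array. Of these 8 only 1 passed the filter, at a difference of -0.57, so the sum does not describe the list as a whole. Thy1 of the reticular list was 3.03 higher in the double-positive arrays (adjusted p = 0.0232 from limma, and 0.169 with the replicate block) and Cd14 of the myeloid list 1.89 higher (adjusted p = 0.0678). The part of reticular cells and macrophages in the difference of Vcam1 was not tested.

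Icam1 encodes the ligand of the leukocyte integrins LFA-1 and Mac-1, and its only probe set was bright on every array. It had values of 9.96, 10.17 and 9.86 in the double-positive arrays against 9.76, 10.53 and 9.25 in the CD31+ arrays. The CD31+ arrays spread wider and enclosed the double-positive values, with replicate 2 highest in both groups. The difference was 0.15 (SE 0.366, 95% interval -0.83 to 1.14, adjusted p = 0.981 from limma), an interval that allows a change of either sign. Centred arrays gave -0.53, and leaving out CD31+ replicate 3 gave -0.15.

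Icam2 encodes a second LFA-1 ligand that resting endothelium carries. Its values were 6.10, 7.47 and 6.67 in the double-positive arrays against 6.09, 7.03 and 5.68 in the CD31+ arrays. The groups overlapped, and replicate 2 was again the highest of each group. The difference of 0.48 (SE 0.539, 95% interval -0.97 to 1.93, adjusted p = 0.690 from limma) was smaller than the spread within either group, at SDs of 0.687 in the double-positive arrays against 0.692 in the CD31+ arrays, and centred arrays gave -0.20. The pair differences were 0.01, 0.44 and 0.99, and with the replicate block the SE was 0.259 (adjusted p = 0.661 from limma).

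**Figure D2:**
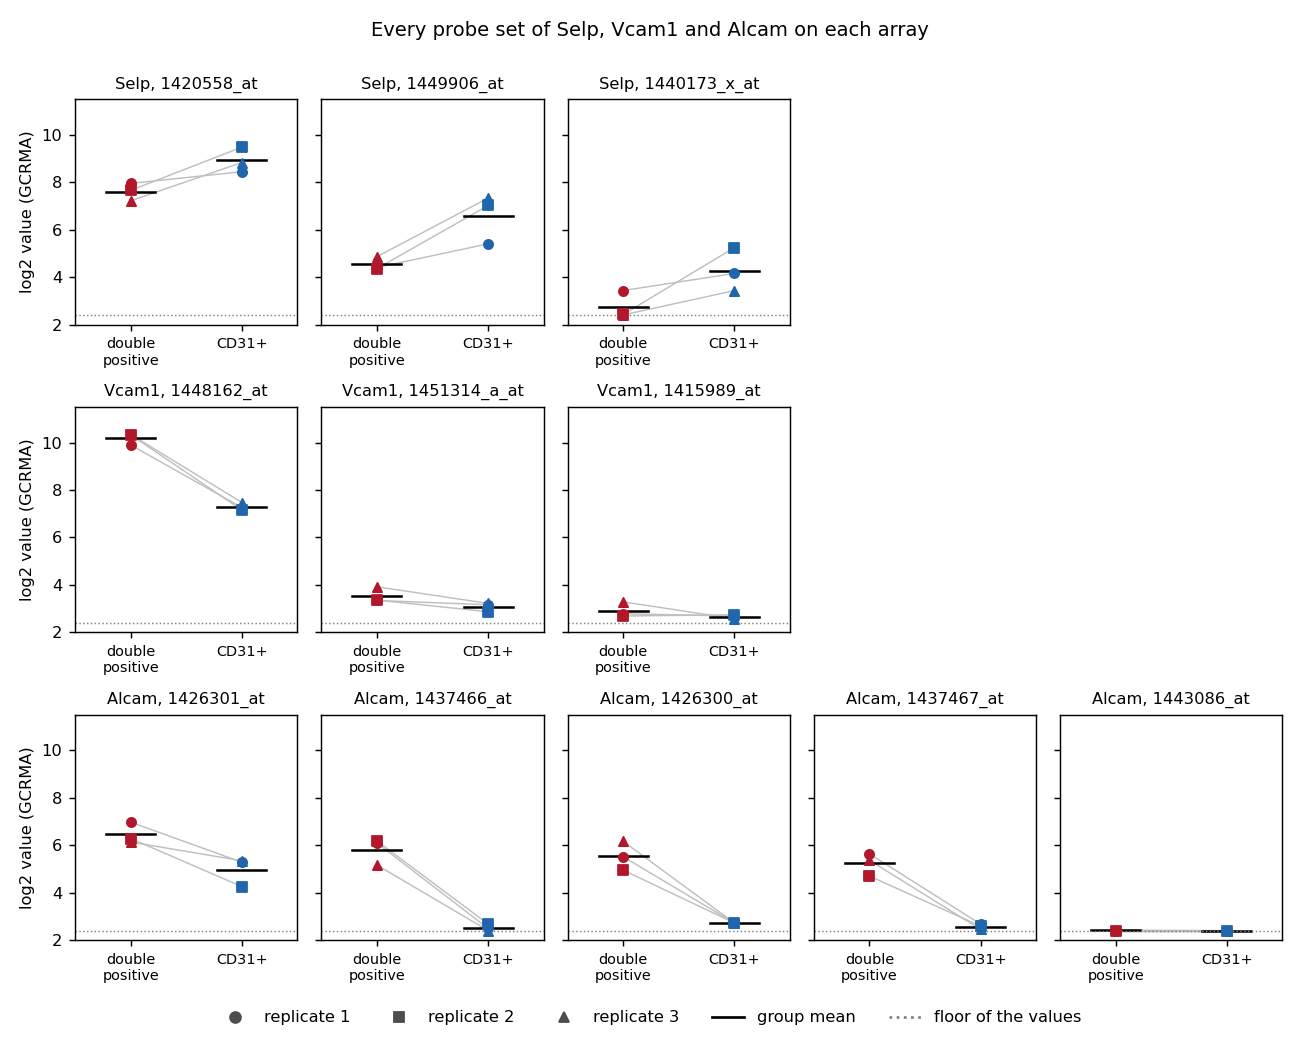
Log2 value (y axis) on each array of every probe set of Selp (top row), Vcam1 (middle row) and Alcam (bottom row), with double-positive arrays in red at the left and CD31+ arrays in blue at the right of each panel. Marker shapes give the replicate number, thin lines join equal numbers and bars are group means; the Selp probe sets are all lower on average in the double-positive arrays, 4 of 5 Alcam probe sets are higher without overlap, and 2 of 3 Vcam1 probe sets lie below 4 throughout.

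Alcam encodes CD166, which binds itself and CD6 of T cells. Its brightest probe set (1426301_at) had values of 6.97, 6.28 and 6.13 in the double-positive arrays, against 5.28, 4.25 and 5.34 in the CD31+ arrays. All double-positive arrays lay above all CD31+ arrays, with pair differences of 1.69, 2.03 and 0.79. The means were 6.46 ± 0.447 in the double-positive arrays against 4.96 ± 0.611 in the CD31+ arrays (SD, n = 3 each), and the difference of 1.50 (SE 0.419, 95% interval 0.37 to 2.63, or 2.83-fold) did not pass with all probe sets tested (adjusted p = 0.352 from limma). It passed with the filter (adjusted p = 0.0184), but not with the filter and centred arrays, where it was 0.82 (adjusted p = 0.170 from limma), nor with the filter without double-positive replicate 1 (adjusted p = 0.0844 from limma).

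The other Alcam probe sets were dimmer, and 3 of the 4 differed by more. 1437466_at had values of 6.09, 6.18 and 5.16 in the double-positive arrays, while the CD31+ arrays were at 2.49, 2.68 and 2.41. Of these, CD31+ replicates 1 and 3 were within 0.1 of the floor of 2.39. Its difference was 3.28 (SE 0.320, adjusted p = 0.0509 from limma), and it passed the filter through the double-positive arrays alone. 1426300_at had 5.51, 4.95 and 6.16 in the double-positive arrays and an identical 2.72 in each CD31+ array, without spread. Its difference was 2.82 (adjusted p = 0.0697 from limma). 1437467_at, at 2.67, 2.59 and 2.45 in the CD31+ arrays, differed by 2.66 (adjusted p = 0.0548), and 1443086_at was near the floor on every array. At 1437466_at, 1426300_at and 1437467_at the CD31+ arrays were dim, so the size of these differences is less certain, also in the average below. Thus 4 of 5 Alcam probe sets stood higher in the double-positive arrays without overlap, and none of them passed with all probe sets tested. With the probe sets of each gene averaged, Alcam differed by 2.05 and passed (adjusted p = 0.0105 from limma), which was so for 2.24% of all genes in the higher direction.

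**Figure D3:**
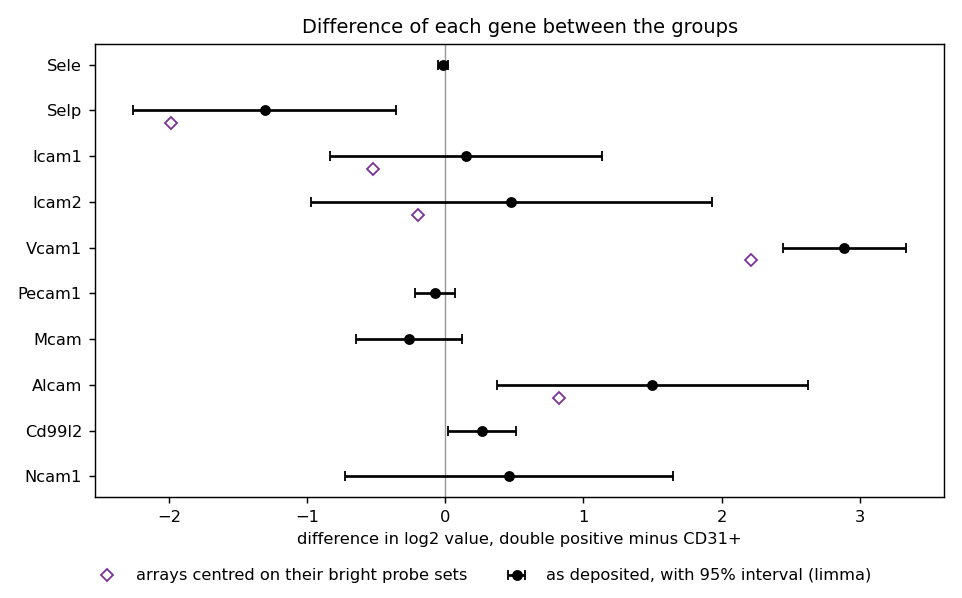
Difference in log2 value, double positive minus CD31+ (x axis), for each of the 10 genes at its brightest probe set, with the 95% interval from limma (bars). Open diamonds give the difference after each array was centred on its bright probe sets, drawn for the 5 genes above the filter on dim probe sets; Vcam1 and Selp keep their side, and Icam1 and Icam2 cross 0.

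Pecam1 encodes CD31, on which both gates were sorted, and its only probe set (1421287_a_at) lay at the floor. The values were 2.43, 2.39 and 2.41 in the double-positive arrays against 2.59, 2.43 and 2.43 in the CD31+ arrays. Only CD31+ replicate 1 was more than 0.1 above the floor, so these values carry no comparison of CD31 RNA. Mcam encodes CD146, a junctional molecule of endothelium and pericytes, and its only probe set was at 2.43 on each double-positive array and at 2.70, 2.43 and 2.95 in the CD31+ arrays, differing by -0.26 (adjusted p = 0.659 in limma). CD31+ replicates 1 and 3 were just above the floor, and the groups met at CD31+ replicate 2.

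Cd99l2 encodes a relative of CD99 that acts in the last steps of transmigration. At its brightest probe set (1423965_at) it had 4.62, 4.73 and 4.92 in the double-positive arrays against 4.49, 4.43 and 4.56 in the CD31+ arrays. The groups did not overlap but lay close together, and the difference of 0.27 (SE 0.092, adjusted p = 0.502 from limma) turned to -0.41 with centred arrays. The other 3 probe sets differed by -0.21, 0.04 and 0.03. Ncam1, the neural cell adhesion molecule, was at the floor at its main probe set on every array but double-positive replicate 2, which was at 3.78. Of its 6 other probe sets 3 rose above the floor by more than 0.1 in a single CD31+ array each, to at most 3.34. Schwann and neural markers were low in both groups, with a linear sum of 38.7 to 45.5 units in the double-positive arrays and 38.5 to 42.6 units in the CD31+ arrays.

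Over the 6 arrays, the genes whose pattern was most like that of Vcam1 were Bcar3, Col4a5 and Cd55 (Pearson r 0.999, 0.998 and 0.996, among the 5179 probe sets that belong to 1 gene and average 5 or more). Those most like Selp were Tspan13, Dnmt1 and Bace2 (r 0.990, 0.987 and 0.974), and those most like Alcam were Slc35a3, Nipsnap2 and Trim35 (r 0.997, 0.993 and 0.984). The points share their arrays and the 2 groups, so these values describe likeness only. Bcar3 was 3.96 higher in the double-positive arrays, at 9.30 against 5.34 in the CD31+ arrays, and Tspan13 differed by -1.75, at 6.37 in the double-positive arrays against 8.12 in the CD31+ arrays.

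The genes that work with these molecules were taken as 5 lists. Over all of them 1 gene passed, as lower, with all probe sets tested, and with the filter 10 of 37 passed as higher and 5 as lower, beside 33.2% and 4.11% of all genes so filtered. Of these 15 genes 9 were at 5 or more on all 6 arrays, while 4 (Jam2, Nrcam, Nectin3 and Il1r1) passed the filter only through their higher group and so had to differ. The gene that passed with all probe sets was Jam2, of 22 other immunoglobulin adhesion and transmigration genes, a junctional ligand of the integrin alpha4 beta1 and of Jam3. Jam2 had 4.24, 3.48 and 3.64 in the double-positive arrays, against 9.15, 8.71 and 8.40 in the CD31+ arrays. Its groups lay further apart than those of any of the 10 members, with a difference of -4.97 (SE 0.305, adjusted p = 0.0240 from limma, and 0.120 with replicate number as block) or 31.2-fold higher in the CD31+ arrays. The call was lost on leaving out any double-positive array or CD31+ replicate 3. A second Jam2 probe set averaged 3.37 in the double-positive arrays against 6.84 in the CD31+ arrays, and 3 others were dim.

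Jam3, a binding partner of Jam2, ran the other way, at 7.49, 6.96 and 7.15 in the double-positive arrays against 5.37, 4.59 and 4.63 in the CD31+ arrays. With the filter, under which 11 of the 22 genes were tested, Jam3 (2.34), the nectin Nectin2 (2.38), the neural adhesion gene Nrcam (1.97) and Cd47 (1.33) passed as higher, and Jam2 and Nectin3 (-1.21) as lower. Of these Cd47 did not pass once arrays were also centred (0.65, adjusted p = 0.113 from limma). Jam2, Nrcam and Nectin3 were kept by the filter only through their higher group and so had to differ. Madcam1, the addressin that binds integrin alpha4 beta7, differed by 0.15 with overlap. Esam, another junctional member, was dim and averaged 2.61 in the double-positive arrays against 3.71 in the CD31+ arrays (adjusted p = 0.111 from limma).

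**Figure D4:**
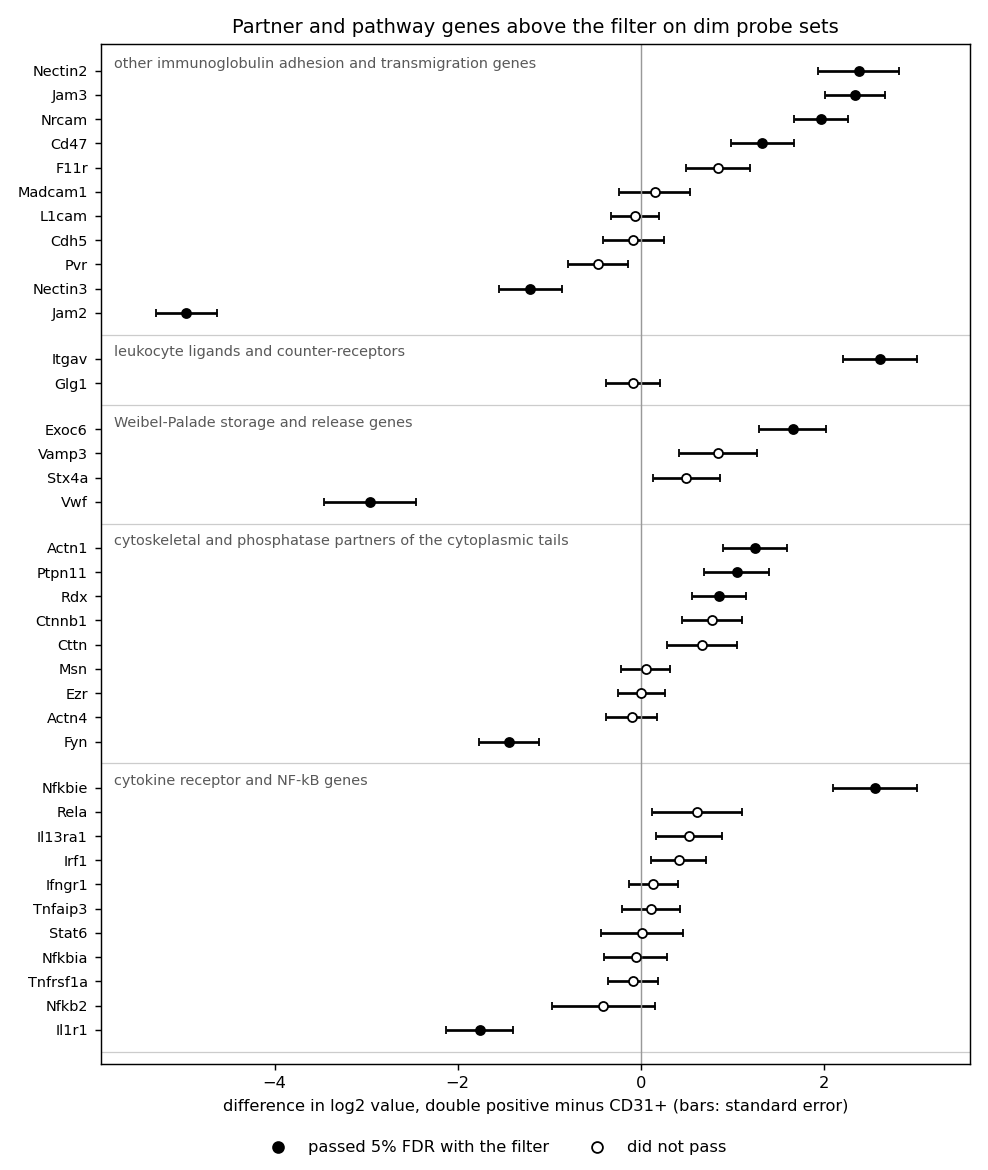
Difference in log2 value, double positive minus CD31+ (x axis), with its standard error (bars), for the genes of the 5 lists whose brightest probe set passed the filter on dim probe sets. Filled points passed 5% FDR with the filter; Jam2 at -4.97 and Itgav at 2.61 mark the extremes of the genes drawn.

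Most ligands and counter-receptors of leukocytes were dim on these arrays. Of 14 measured ligands and counter-receptors 0 passed in limma with all probe sets tested, 3 higher ones and 0 lower ones had p under 0.05 before adjustment (over all genes 12.5% and 2.12%, also for the lists that follow), and 2 passed the filter. Itgav, a subunit of the vitronectin receptors, had 9.73, 9.41 and 9.18 in the double-positive arrays against 6.95, 7.53 and 6.00 in the CD31+ arrays. The difference was 2.61 (adjusted p = 0.148 from limma, and 0.0018 with the filter). Its partner Itgb3 was dimmer and differed by 1.79 (adjusted p = 0.131), and Itgax and Cd6, the receptor of ALCAM, were near the floor on all arrays. B and T cell markers summed to 268 to 503 units in the double-positive arrays against 706 to 840 units in the CD31+ arrays. Of the 9 measured, 3 lay near the floor on all 6 arrays and only 1 passed the filter. That was Cd8a, at 8.37 in the double-positive arrays and at 9.44 in the CD31+ ones, so the sum does not describe the list as a whole.

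Of 10 measured Weibel-Palade storage and release genes 0 passed in limma with all probe sets tested, and before adjustment 1 higher and 1 lower had p under 0.05. Vwf, which encodes the von Willebrand factor that shares these granules with P-selectin, had 6.11, 5.43 and 5.45 in the double-positive arrays against 8.56, 9.71 and 7.59 in the CD31+ arrays. Its groups did not overlap, and as for Selp the CD31+ array of replicate 2 was the highest, with a difference of -2.96 (SE 0.625, adjusted p = 0.211 from limma, and 0.0029 with the filter). Exoc6, of the exocyst complex, differed by 1.66 (adjusted p = 0.242, and 0.0098 with the filter).

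Of 12 genes for cytoskeletal and phosphatase partners of the cytoplasmic tails 0 passed in limma with all probe sets tested, beside 4 higher and 1 lower with p under 0.05 before adjustment. With the filter the actinin gene Actn1 (1.25), the ezrin relative Rdx (0.85) and the phosphatase gene Ptpn11 (1.05) passed as higher and the kinase gene Fyn (-1.44) as lower. Once arrays were also centred, Fyn alone passed. Of 15 cytokine receptor and NF-kB genes 0 passed with all probe sets tested in limma (1 higher and 1 lower with unadjusted p under 0.05). Nfkbie, an inhibitor of NF-kB, was at 12.04, 11.06 and 11.56 in the double-positive arrays against 9.62, 9.36 and 8.01 in the CD31+ arrays, and the receptor gene Il1r1 averaged 3.91 in the double-positive arrays against 5.67 in the CD31+ arrays. With the filter Nfkbie passed as higher (2.56, adjusted p = 0.0038 from limma) and Il1r1 as lower (-1.76, adjusted p = 0.0073). Il1r1 was kept by the filter only through the CD31+ arrays and so had to differ.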

How the data were processed

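RNA was measured on 6 GeneChip mouse genome arrays, 3 double positive and 3 CD31+, grouped by the gate word of the labels. Per the labels and the study's methods, each sample's 20 ng of RNA was amplified linearly in 2 rounds before biotin labelling. The authors' normalization was GCRMA, so the deposited values are log2 abundances, 1 per probe set and array. Versions of GCRMA and limma, and which arrays were normalized together, are not given in the sources used here. GCRMA pulls dim probe sets to a common floor, and amplification can distort abundance, so the size of a difference is less certain for dim probe sets.

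Of 45101 probe sets 64 controls were left out. Of the 45037 others, 34945 had 1 gene, 932 several and 9160 none in the platform annotation, and 34741 of the 34945 matched RefSeq, which gave current symbols. None of the 27 probe sets of the members is shared with another gene. A gene's brightest probe set (highest mean over the 6 arrays) stands for it, and "close to the floor" means within 0.1 of it.

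The test was a two-sided moderated one (limma 3.58.1, R 4.3.3, default lmFit then eBayes) on all 45037 probe sets, with Benjamini-Hochberg adjustment over all of them at 5% FDR. The prior degrees of freedom were 0.356 without the filter on dim probe sets and 4.92 with it (6088 probe sets), beside 4 residual ones. The exact permutation test of 3 arrays against 3 cannot go below p = 0.1 and is not printed for single genes. The labels call the arrays biological replicates of pooled LN without saying how many mice each holds, so p-values measure the spread between these arrays, and their number limits the precision. Scripts were tested on simulated data.

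Equal replicate numbers were taken to pair the arrays, since the design text calls the samples paired. The test described above had no block, since the study's methods name none, and the replicate block was run as an alternative. In 5764 probe sets averaging 5 or more, deviations from the group means correlated at 0.341, 0.475 and 0.418 for equal numbers and at -0.405 to 0.057 for unequal ones. Alternatives were the replicate block, the filter, both together, centred arrays with and without the filter, eBayes with trend and robust, array weights, probe sets averaged per gene, the probe set with the largest spread, 1% and 10% FDR, and each array left out, the last also with the filter, which was added after the data were seen. The members, the 5 pathway lists and the marker lists were chosen with earlier results of these data known. Named genes are the members, up to 4 genes of each pathway list with the smallest unadjusted p or a call, and up to 3 bright markers of each list. Cd14, Col3a1, Thy1, Madcam1, Nectin3 and the genes said to lie at the floor were also named after their values were seen. Promoter letters came from RefSeq (GRCm38.p6). Python 3.11.15 with matplotlib 3.10.9 drew the figures.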

Additional observations from a re-analysis of the deposited data

How the results depend on the processing

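Vcam1, Selp and Alcam kept their direction under every alternative run, and Sele, Pecam1 and Mcam under those without the filter, which they did not pass. Centred arrays turned Icam1 to -0.53, Icam2 to -0.20, Cd99l2 to -0.41 and Ncam1 to -0.22, with the same values for Icam1 and Icam2 when the filter was added. This follows from the shift of 0.68. Averaging probe sets turned Ncam1 to -0.029. Leaving out CD31+ replicate 3 turned Icam1 to -0.15, also with the filter, within a range of -0.15 to 0.49 over the arrays left out.

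Members passing as higher and lower numbered 1 and 0 as tested, 0 and 0 with the replicate block, 2 and 1 with the filter, also when the block was added, 2 and 4 with centred arrays, 1 and 1 when these were filtered, 2 and 0 with probe sets averaged, and 0 and 0 at 1% FDR. The 4 lower with centred arrays were Selp and, at or within 0.1 of the floor on most arrays, Sele, Pecam1 and Mcam. Centred arrays without the filter gave 67.2% of all genes as lower. The block ended the calls of Vcam1 and Jam2, and those of all lymphatic and blood endothelial markers, with all probe sets tested, and changed no call of a member with the filter. For all genes the counts were 160 and 32 as tested, 2 and 0 with the block, 1398 and 173 with the filter, 1950 and 210 with filter plus block, 1310 and 12217 with centred arrays, 530 and 405 when these were filtered, and 407 and 83 with probe sets averaged. Of the 12217 genes 11323 did not pass the filter, and 38.9% were within 0.1 of the floor on all arrays, where centring sets the groups apart by construction. For the pathway genes they were 0 and 1 as tested, 0 and 0 with the block, 10 and 5 with the filter, 12 and 5 with filter plus block, 9 and 47 with centred arrays, 6 and 6 when these were filtered, and 3 and 2 with probe sets averaged. Counts with trend and robust eBayes, array weights and the probe set with the largest spread were within 1.5 times those as tested.

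Leaving out 1 array gave 0 to 1 members higher and 0 lower, 31 to 66 genes higher and 4 to 34 lower, and 0 to 1 pathway genes in each direction. With the filter it gave 1 to 2 members higher and 0 to 1 lower, 619 to 1543 genes higher and 133 to 191 lower, and 5 to 9 pathway genes higher and 4 to 5 lower. Limits come from signal, since Sele, Pecam1, Mcam and Ncam1 were within 0.1 of the floor on most arrays at their main probe sets, and from 3 arrays a group.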
